A study of Mus musculus with 1203 samples.

Results

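The genes described here are 9 components of the epithelial tight junction, 6 claudins (Cldn2, Cldn3, Cldn4, Cldn7, Cldn15 and Cldn23), occludin (Ocln), junctional adhesion molecule A (F11r) and ZO-1 (Tjp1). They were taken by symbol from a table of 46517 mouse genes, and all 9 were present. Single colon cells of 11-week-old female mice had been profiled by Smart-seq2, in which whole polyadenylated transcripts are copied and amplified 1 well at a time. Cells labelled VillinCre;IPMKf/f came from mice in which Cre recombinase, driven by the intestinal epithelial Villin promoter, acts on floxed alleles of Ipmk, the gene of inositol polyphosphate multikinase. The cells they were compared with were labelled wild type. Of 1203 wells, 1083 were labelled as tuft cells, sorted on the epithelial surface protein EPCAM and on SIGLEC-F, and 120 as epithelial cells, for which the sources used here give no gate. No label names an animal, and none of the 7 plate sets holds both genotypes: sets 2, 4, 5 and 7 are VillinCre;IPMKf/f and sets 1, 3 and 6 wild type. Genotype and plate set therefore cannot be told apart, each genotype is 1 sample, no p-value was computed, and every SD is over plate sets and may reflect technical spread.

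Tight junctions seal the space between neighbouring epithelial cells. Claudins are membrane proteins with 4 spans whose outer loops meet those of the next cell, some closing the gap and others forming charge-selective pores, while scaffold proteins such as ZO-1 tie them to the actin cortex. In the colon, pore-forming claudin-2 is known mainly from the crypt, and sealing claudins such as claudin-4 and claudin-23 from the surface epithelium.

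Cells with at least 1000 genes above 0 TPM were kept, 856 in all, and split by 3 other genes. Tuft cells, the chemosensory cells of the epithelium, were those with Trpm5 of at least 50 TPM and Dclk1 of at least 100 TPM. Krt20-positive cells were those outside this class with at least 20 TPM of Krt20, a keratin of mature surface colonocytes. All others form the rest. Wells labelled tuft gave 766 of these cells: 100 were Krt20-positive (47 labelled VillinCre;IPMKf/f, 53 wild type), 25.98% belonged to the rest and 60.97% were Trpm5+Dclk1+ tuft cells. VillinCre;IPMKf/f was the label of 33.67% of the rest and of 39.83% of the Trpm5+Dclk1+ cells. Wells labelled epithelial gave 34, 37 and 19 cells of the same classes. None of the 9 genes took part in this split.

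The markers fitted these classes, the splitting genes being part of their lists. Of 15 tuft markers, 14 averaged at least 10 TPM in Trpm5+Dclk1+ cells and 1 did so in Krt20-positive cells, while 13 of 14 colonocyte markers did so in Krt20-positive cells and 3 in Trpm5+Dclk1+ cells. The rest is a mixture: 6 of 10 goblet, 3 of 10 stem or progenitor, 7 of 15 tuft, 7 of 14 colonocyte and 3 of 11 immune markers reached 10 TPM there. Krt20-positive cells also held goblet transcripts: 5 of 10 goblet markers reached 10 TPM, with a summed mean of 1807 TPM against 1666 TPM in the rest, and Muc2 was above 0 in 15.0% of them. Siglecf, the transcript of the sorted protein, averaged 3.16 ± 4.39 TPM in Krt20-positive cells, 5.77 ± 3.83 TPM in the rest and 64.96 ± 23.1 TPM in Trpm5+Dclk1+ cells. Median genes per cell averaged 2209 ± 470 in Krt20-positive cells, 2517 ± 878 in the rest and 2550 ± 286.9 in Trpm5+Dclk1+ cells (SD, n = 7 plate sets). The single 18S ribosomal RNA entry took 66.6% ± 5.37 of all TPM in Krt20-positive cells, 78.4% ± 4.38 in the rest and 78.6% ± 1.27 in Trpm5+Dclk1+ cells, and mitochondrial genes took 10.1% ± 3.60, 3.71% ± 1.34 and 2.61% ± 0.50 in the same order of classes. These shares enter every TPM below through the fixed total, and values were therefore also rescaled without those genes. Ipmk was not lower in the cells labelled VillinCre;IPMKf/f: its plate-set means over all wells labelled tuft were 6.90, 18.8, 9.63 and 7.57 TPM in sets 2, 4, 5 and 7 of that genotype, and 3.22, 4.31 and 3.31 TPM in sets 1, 3 and 6 of the wild type. Which exons lie between the floxed sites is unknown here, so a gene-level TPM does not check the deletion, and the genotype is given below as labelled.

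The promoter sequences of 4 claudins are shown because the class means of Cldn3 and Cldn4 were highest in Krt20-positive cells, and those of Cldn2 and Cldn15 in the rest. Each runs 5′ to 3′ on the gene's strand from 250 bases before the transcription start to 50 bases from it on, from RefSeq on GRCm38.p6, the patched form of build mm10. RefSeq windows were matched for 8 of the 9 genes. The windows lie at chrX:139800558-139800857 on the plus strand for Cldn2, chr5:136967619-136967918 on the plus strand for Cldn15, chr5:134985964-134986263 on the plus strand for Cldn3 and chr5:134946885-134947184 on the minus strand for Cldn4. Capitals mark 4 motifs searched on both strands, the TATA box TATAAA, the GC box GGGCGG, the E-box CAGGTG and the AP-1 motif TGACTCA, of which no matches overlapped.
Cldn2: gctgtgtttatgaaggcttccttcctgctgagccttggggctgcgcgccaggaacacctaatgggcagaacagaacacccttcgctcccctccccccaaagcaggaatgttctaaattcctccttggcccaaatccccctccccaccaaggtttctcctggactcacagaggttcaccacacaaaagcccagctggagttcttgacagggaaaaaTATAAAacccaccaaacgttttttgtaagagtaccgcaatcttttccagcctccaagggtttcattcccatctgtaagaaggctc
Cldn15: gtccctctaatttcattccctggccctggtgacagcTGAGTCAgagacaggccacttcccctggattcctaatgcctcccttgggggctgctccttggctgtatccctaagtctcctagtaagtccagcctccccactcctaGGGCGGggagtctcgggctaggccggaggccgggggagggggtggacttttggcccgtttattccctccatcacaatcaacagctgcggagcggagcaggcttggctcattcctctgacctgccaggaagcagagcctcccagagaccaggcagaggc
Cldn3: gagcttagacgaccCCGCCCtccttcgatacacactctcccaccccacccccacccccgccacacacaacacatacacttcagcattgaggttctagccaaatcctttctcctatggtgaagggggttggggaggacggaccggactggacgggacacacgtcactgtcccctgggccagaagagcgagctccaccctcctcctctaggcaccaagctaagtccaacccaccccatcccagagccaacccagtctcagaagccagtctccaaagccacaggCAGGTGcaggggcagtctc
Cldn4: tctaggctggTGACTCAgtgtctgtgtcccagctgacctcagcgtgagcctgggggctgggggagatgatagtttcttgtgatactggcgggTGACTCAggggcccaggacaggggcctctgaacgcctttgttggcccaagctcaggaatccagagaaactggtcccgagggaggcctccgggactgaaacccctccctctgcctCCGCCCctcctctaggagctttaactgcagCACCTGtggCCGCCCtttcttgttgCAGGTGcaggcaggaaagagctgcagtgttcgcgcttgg
Cldn2 was the window of these with a TATAAA, at -35 from its start, a motif in 13.6% of all 32851 RefSeq promoter windows of this length. TGACTCA, present in 5.20% of all windows, began at -240 and -158, counted from the start, in Cldn4 and at -214 in Cldn15. CAGGTG, in 20.2% of all windows, stood at 32 in Cldn3 and at -14 and 12 in Cldn4. GGGCGG, in 35.7% of windows, lay at -236 in Cldn3, at -44 and -5 in Cldn4 and at -108 in Cldn15. A match is a description of these letters and not a bound site, and the motifs were chosen with the matches in view. The GC content was 51.3% for Cldn2, 61% for Cldn15, 60.7% for Cldn3 and 61% for Cldn4, against a median of 52.7% over all windows. Cldn3 and Cldn4 are neighbours on chromosome 5, 39279 bases apart and on opposite strands, and each has 1 exon in the annotation (GENCODE M21, whose gene identifiers match the table for all 9 genes).

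Krt20-positive cells carried the highest levels of the sealing claudins. In the comparison with Trpm5+Dclk1+ tuft cells of the same plate set, a gene was called when it reached 10 TPM in a class, differed at least 2-fold on the log2(mean TPM + 1) scale and had the same sign in all 7 plate sets. By this rule 3 of the 5 tight junction genes that reached 10 TPM were higher, Cldn3, Cldn4 and Cldn23, and none was lower, where 18.9% of all 2752 genes compared were higher and 36.6% were called in either direction. The median difference of the 5 genes was 1.34, and that of all 2752 genes was -0.12. Against the rest, the same 3 were higher and Cldn2 and Cldn15 were lower among 7 genes that reached 10 TPM, with backgrounds of 16.1% higher, 8.52% lower and 24.7% in either direction among 2628 genes. The median difference over those 7 genes was 1.23, and over all 2628 genes 0.17.

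**Figure D1:**
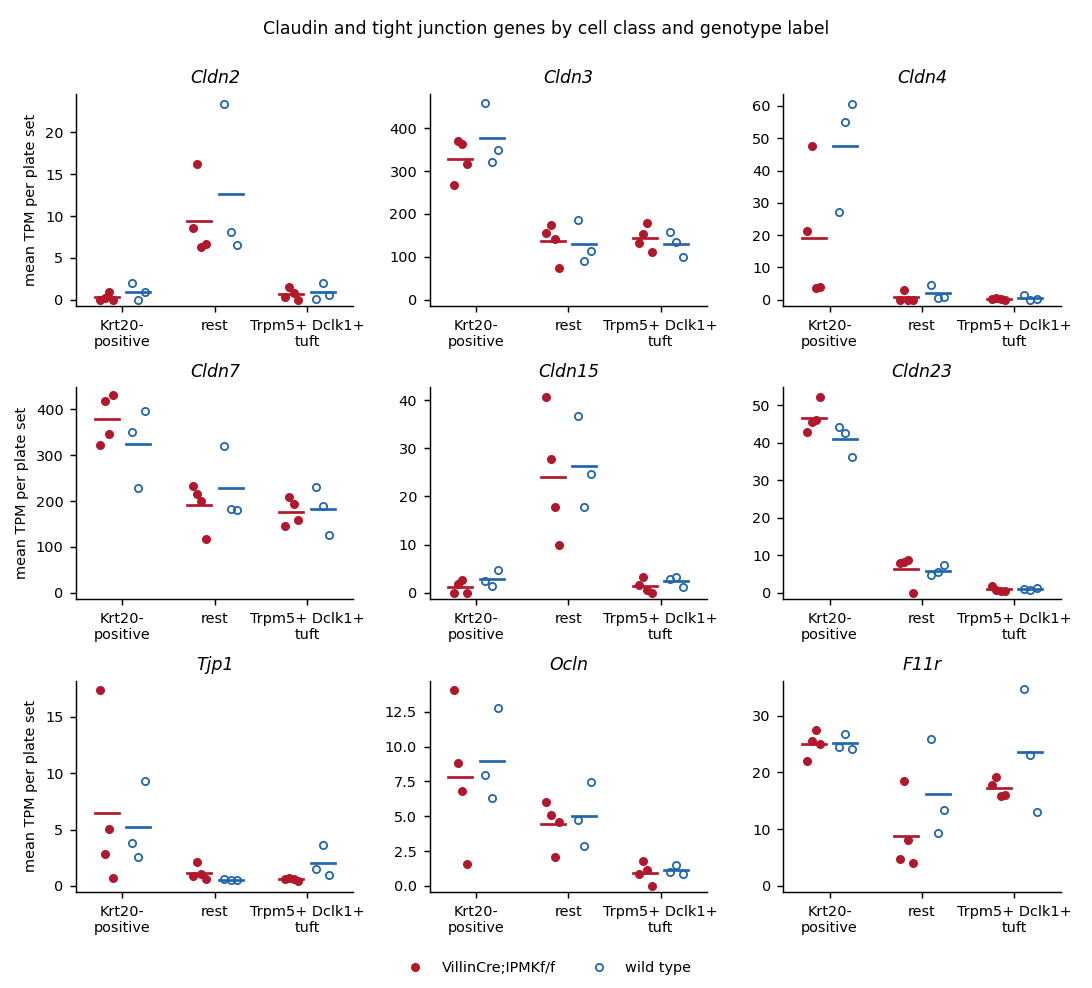
Mean TPM per plate set (vertical axis, linear and on a scale of its own for each gene) of the 9 genes in Krt20-positive cells, the rest and Trpm5+ Dclk1+ tuft cells from wells labelled tuft. Filled red points are the 4 VillinCre;IPMKf/f plate sets, open blue points the 3 wild-type sets and bars their means; Cldn23 sits at 36.1 to 52.1 TPM in Krt20-positive cells and at 0 to 8.70 TPM in the rest.

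Claudin-23, a claudin of the luminal colonic epithelium, gave the largest difference of the 9 genes between Krt20-positive and Trpm5+Dclk1+ cells, though with rescaled TPM Cldn4 exceeded it (6.38 against 5.48). In Krt20-positive cells its plate-set means had a lowest value of 36.1, a median of 44.1 and a highest of 52.1 TPM, against 0.401, 0.878 and 1.92 TPM in Trpm5+Dclk1+ cells and 0, 7.52 and 8.70 TPM in the rest. No value of the Krt20-positive cells overlapped those of the other classes. The mean was 44.2 ± 4.80 TPM in Krt20-positive cells, 6.12 ± 3.07 TPM in the rest and 0.978 ± 0.533 TPM in Trpm5+Dclk1+ cells (SD, n = 7 plate sets), a log2 difference of 4.55 ± 0.49 over Trpm5+Dclk1+ cells and of 2.92 ± 1.28 over the rest. By size, the difference from Trpm5+Dclk1+ cells stood at place 42 of 2752 genes. Cldn23 was above 0 TPM in 79% of Krt20-positive cells, in 40.2% of the rest and in 7.49% of Trpm5+Dclk1+ cells, with exact Clopper-Pearson 95% intervals of 69.7% to 86.5%, 33.3% to 47.4% and 5.28% to 10.3%. These intervals cover counting error only, and TPM cannot be thinned to a common depth. Within a band of 2000 to 4000 genes per cell, the shares were 73.7% of 38 Krt20-positive cells, 44.8% of 58 cells of the rest and 5.60% of Trpm5+Dclk1+ cells.

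Claudin-4, a sealing claudin that also serves as a receptor for Clostridium perfringens enterotoxin, had its highest level in the Krt20-positive cells but was above 0 TPM in a minority of them. Its plate-set means there ran from 3.74 through a median of 27.2 to 60.6 TPM, against 0, 0.521 and 4.56 TPM in the rest and 0, 0.242 and 1.34 TPM in Trpm5+Dclk1+ cells. The highest value of the rest exceeded the lowest of the Krt20-positive cells across plate sets, while within each set the Krt20-positive cells were higher. The differences were 4.07 ± 1.49 over Trpm5+Dclk1+ cells and 3.60 ± 1.33 over the rest on the log2 scale (SD, n = 7). It was above 0 in 32% of Krt20-positive cells (23.02% to 42.1%), 5.03% of the rest (2.44% to 9.05%) and 3.21% of Trpm5+Dclk1+ cells (1.81% to 5.24%). Single cells weighed heavily on its means: with the highest cell of each plate set and class left out, an alternative chosen after seeing the data, the differences were 2.44 and 2.27, still called in both comparisons.

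Claudin-3 and claudin-7 were abundant in every class, with their highest means in Krt20-positive cells. Between the rest and Trpm5+Dclk1+ cells the log2 differences were -0.09 ± 0.39 for Cldn3 and 0.18 ± 0.39 for Cldn7, of mixed sign over plate sets. Claudin-3, a sealing claudin, had plate-set means of 266.7, 349.7 and 459.6 TPM (lowest, median, highest) in Krt20-positive cells, against 73.9, 141.5 and 185.02 TPM in the rest and 98.7, 134.8 and 177.9 TPM in Trpm5+Dclk1+ cells. The Krt20-positive cells did not overlap either class, and the log2 differences were 1.44 ± 0.45 over the rest and 1.34 ± 0.29 over Trpm5+Dclk1+ cells. Claudin-7, which binds EPCAM and also lies along the lateral membrane, had 227.5, 351.001 and 432.03 TPM in Krt20-positive cells, against 117.7, 199.4 and 320.7 TPM in the rest and 126.5, 189.5 and 231.7 TPM in Trpm5+Dclk1+ cells. It was higher in Krt20-positive cells in 7 of 7 plate sets in both comparisons, but the differences of 0.80 ± 0.59 over the rest and 0.99 ± 0.48 over Trpm5+Dclk1+ cells were under the 2-fold limit. Both genes were above 0 in most cells of every class: Cldn3 in 99%, 87.9% and 92.7%, and Cldn7 in 97%, 87.9% and 86.7% of Krt20-positive cells, the rest and Trpm5+Dclk1+ cells.

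The pore-forming claudins marked the rest. Claudin-2, a channel for cations and water, had plate-set means of 6.29, 8.13 and 23.4 TPM (lowest, median, highest) in the rest, against 0, 0.593 and 2.06 TPM in Trpm5+Dclk1+ cells, and 0, 0.199 and 1.95 TPM in Krt20-positive cells. Claudin-15, a sodium pore, had 9.94, 24.7 and 40.6 TPM in the rest, against 0, 1.71 and 3.40 TPM in Trpm5+Dclk1+ cells, and 0, 1.82 and 4.75 TPM in Krt20-positive cells. Neither gene's values in the rest overlapped those of the other 2 classes. These 2 were the called genes of the 5 that reached 10 TPM in the rest over Trpm5+Dclk1+ cells, both higher, with log2 differences of 2.68 ± 0.95 for Cldn2 and 3.23 ± 0.62 for Cldn15, where 7.64% of all 2538 genes were higher and 24.1% were called in either direction (median 0.18 over the 5 genes and -0.23 over all). By size they stood at places 45 and 25 of those 2538 genes. In Krt20-positive cells they were lower than in the rest by log2 differences of -2.89 ± 0.70 for Cldn2 and -3.29 ± 1.06 for Cldn15, with the same sign in 7 of 7 plate sets.

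The call on Cldn2 lay close to the floor of 10 TPM: its mean in the rest was 10.8 ± 6.53 TPM, and without plate set 1 or without plate set 4 it was under 10 TPM and no longer called against either class, where Cldn15 was called throughout. The same happened without the highest cell of each plate set and class. Because goblet and immune markers were present in the rest, the comparison was repeated, as an alternative chosen after seeing the data, without cells of at least 50 TPM Muc2 or 100 TPM Cd74. The differences over Trpm5+Dclk1+ cells were then 2.74 for Cldn2 and 3.14 for Cldn15, both called.

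**Figure D2:**
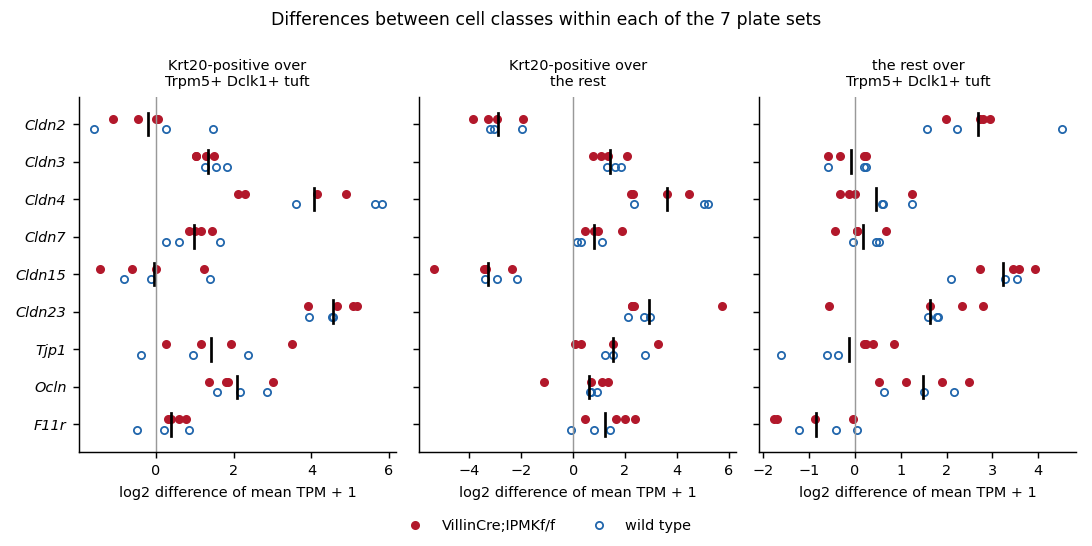
Log2 difference of mean TPM + 1 between classes within each of the 7 plate sets (horizontal axis, a scale for each panel), for Krt20-positive cells over Trpm5+ Dclk1+ tuft cells, Krt20-positive cells over the rest, and the rest over Trpm5+ Dclk1+ tuft cells. Filled red points are VillinCre;IPMKf/f plate sets, open blue points wild-type sets and black bars the mean; Cldn23 lies between 3.91 and 5.17 in the left panel and Cldn15 between 2.10 and 3.94 in the right one.

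The proteins beside the claudins were low or even. Occludin, a MARVEL-domain membrane protein of the junction strand, averaged 8.32 ± 4.18 TPM in Krt20-positive cells, 4.69 ± 1.82 TPM in the rest and 1.03 ± 0.567 TPM in Trpm5+Dclk1+ cells. It stayed under 10 TPM and was not called, although Krt20-positive cells and the rest were each above Trpm5+Dclk1+ cells in 7 of 7 plate sets, by 2.09 ± 0.63 and 1.48 ± 0.76 on the log2 scale. ZO-1, the scaffold that binds claudins and occludin, averaged 5.96 ± 5.70 TPM in Krt20-positive cells, 0.921 ± 0.572 TPM in the rest and 1.21 ± 1.12 TPM in Trpm5+Dclk1+ cells, also under the floor. Its long transcript was above 0 in 60%, 29.6% and 27.8% of cells of these classes. JAM-A, an immunoglobulin-like adhesion receptor, was the evenest of the 9 across plate sets in Krt20-positive cells, with 22.1, 24.9 and 27.5 TPM (lowest, median, highest). It had 4.00, 9.29 and 25.9 TPM in the rest and 13.01, 17.7 and 34.6 TPM in Trpm5+Dclk1+ cells, so the classes overlapped. Its differences were 0.38 ± 0.45 for Krt20-positive cells over Trpm5+Dclk1+ cells and -0.85 ± 0.75 for the rest over Trpm5+Dclk1+ cells, each with the named sign in 6 of 7 plate sets and under the 2-fold limit. Against the rest, Krt20-positive cells had 1.23 ± 0.88 more, in 6 of 7 plate sets, which did not meet the rule.

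In TPM, which is per transcript length, the order of mean levels in Krt20-positive cells was Cldn7 and Cldn3 at 355.8 ± 69.6 and 349.6 ± 59.8, then Cldn23, Cldn4 at 31.3 ± 23.5 and F11r at 25.05 ± 1.81, then Ocln and Tjp1, then Cldn15 at 1.90 ± 1.66 and Cldn2 at 0.565 ± 0.735. Neighbours within each of these steps differed by less than the larger of their SDs. In Trpm5+Dclk1+ cells the order was Cldn7 at 179.02 ± 37.2, Cldn3 at 137.8 ± 27.3 and F11r at 19.9 ± 7.20 TPM, with the other 6 genes between 0.367 and 1.87 TPM. A median of 5 of the 9 genes was above 0 in a Krt20-positive cell, 5 in a cell of the rest and 3 in a Trpm5+Dclk1+ cell.

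With TPM rescaled without the mitochondrial and the 20 most abundant genes, more genes reached 10 TPM. The median of all genes was -0.93 over 9860 genes for Krt20-positive over Trpm5+Dclk1+ cells. It was -0.50 over 9634 genes for Krt20-positive cells over the rest and -0.39 over 9967 genes for the rest over Trpm5+Dclk1+ cells. These are other sets of genes than above: a floor of 1 TPM without rescaling gave -0.38, -0.18 and -0.17 over 10030, 9943 and 10233 genes. Beside these medians, Cldn3, Cldn4, Cldn23 and Ocln with rescaled TPM were at 1.39, 6.38, 5.48 and 3.08 in Krt20-positive over Trpm5+Dclk1+ cells. Cldn2 was at -4.61 in Krt20-positive cells over the rest, and the direction of each called gene held.

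The split at 20 TPM of Krt20 cut through a gradient. Among cells outside the Trpm5+Dclk1+ class, mean Cldn23 over cells was 5.99, 14.7, 30.4 and 54.8 TPM at Krt20 of 0 (58.86% of these cells), above 0 and under 20 (23 cells), 20 to under 100 (50 cells) and 100 TPM or more (50 cells). Cldn4 ran 0.871, 3.05, 17.1 and 55.8 TPM over the same steps, and Cldn15 ran the other way, 26.7, 9.90, 3.39 and 1.96 TPM. Cldn2 fell likewise over the steps, 9.97, 3.70, 1.04 and 0.426 TPM. Cldn3 had 126.9, 126.2, 221.2 and 498.5 TPM over the steps and Cldn7 204.3, 165.6, 191.9 and 540.01 TPM, both highest by far in the last. F11r was at 13.2, 8.71, 14.5 and 35.7 TPM, Ocln at 5.90, 2.04, 4.90 and 13.4 TPM and Tjp1 at 0.704, 1.60, 6.86 and 5.48 TPM. Median genes per cell were 2841, 1736, 1943 and 2908.5 over the steps, and their part in these values was not tested. Single cells weighed on the means of low genes: without its highest cell, Cldn4 in the second step was 0.1405 TPM in place of 3.05, and in the last 42.6 TPM in place of 55.8. Just inside the threshold, the 12 cells with 20 to under 40 TPM of Krt20 had 18.3 TPM of Cldn23, 182.998 TPM of Cldn3 (136.8 without 1 cell) and 2.68 TPM of Cldn15, and just outside it the 15 cells with 10 to under 20 TPM had 14.8 TPM of Cldn23 (7.29 without 1 cell), 132.1 TPM of Cldn3 and 7.11 TPM of Cldn15.

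**Figure D3:**
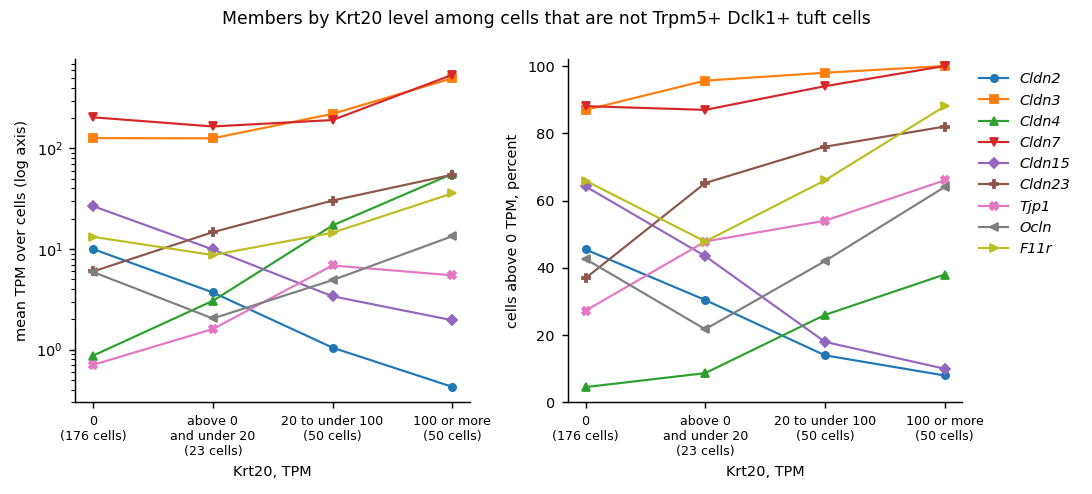
Mean TPM over cells (left, log axis) and percent of cells above 0 TPM (right) of the 9 genes over 4 steps of Krt20 in wells labelled tuft, Trpm5+ Dclk1+ tuft cells left out. Each line is a gene; Cldn23 and Cldn4 climb to 54.8 and 55.8 TPM at 100 TPM of Krt20 or more, while Cldn15 and Cldn2 drop to 1.96 and 0.426 TPM.

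The 2 pore-forming claudins were found in the same cells. In the rest, Cldn15 was above 0 in 89.7% of cells with Cldn2 (78 of 87, 81.3% to 95.2%) and in 40.2% of cells without it (31.03% to 49.9%). The cells with Cldn2 had more genes, with medians of 4072 against 1856. Within 2000 to 4000 genes the shares were 86.7% (26 of 30) against 53.6% (15 of 28), and above 4000 genes 95.7% (45 of 47) against 66.7% (12 of 18). Trpm5+Dclk1+ cells rarely had either, but 20 of the 25 with Cldn2 also had Cldn15, against 1.81% of those without (8 cells). Within 2000 to 4000 genes that was 66.7% (6 of 9) against 1.54% (4 cells).

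These 25 Trpm5+Dclk1+ cells with Cldn2 came from 6 of the 7 plate sets. They averaged 153.9 TPM of Trpm5 and 268.02 TPM of Dclk1, against 252.2 TPM of Trpm5 and 552.5 TPM of Dclk1 in those without Cldn2. Their Epcam was 211.02 against 65.7 TPM and their Cldn3 290.2 against 123.4 TPM. Top2a, a gene of dividing cells, was above 0 in 8 of the 25 against 3.62% of those without Cldn2 and Mki67 in 5 against 1.81%, while Muc2 was above 0 in 1 against 2.49%. Lgr5, of the stem or progenitor list, averaged less, 16.3 against 26.7 TPM, but was above 0 in 68% against 58.8% of cells. Krt20 was above 0 in 3 of the 25 against 3.39% and averaged 6.18 against 0.552 TPM. Their median gene number was 4718 against 2580.5, and its part in these differences was not tested.

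**Figure D4:**
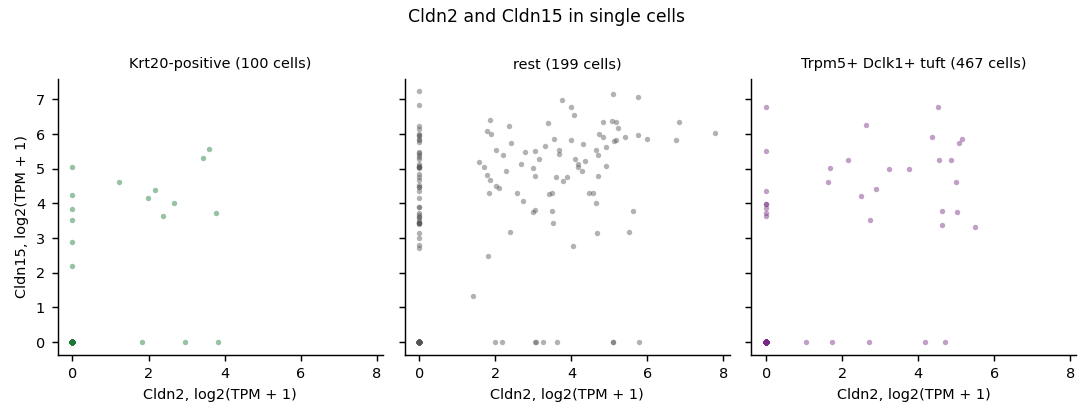
Cldn15 against Cldn2 in single cells, both as log2(TPM + 1), for Krt20-positive cells, the rest and Trpm5+ Dclk1+ tuft cells of wells labelled tuft. Each point is a cell, and cells at 0 lie on the axes; 78 of the 87 cells of the rest with Cldn2 also have Cldn15.

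Within the rest, Cldn2 and Cldn15 were spread over several kinds of cells. The 15 cells with at least 10 TPM of Mki67 or Top2a averaged 28.5 TPM of Cldn2 and 47.9 TPM of Cldn15, and also 336.1 TPM of Cldn7. Their Ocln averaged 25.3 TPM, but 7.19 TPM without 1 cell of 278.78 TPM. In the 22 cells with at least 50 TPM of Muc2, the goblet mucin, Cldn15 averaged 45.8, Cldn2 11.5 and Cldn3 200.99 TPM. The 45 cells with at least 50 TPM of Trpm5 but too little Dclk1 averaged 18.3 TPM of Cldn15 and 6.39 TPM of Cldn2, against means over cells of 2.004 TPM of Cldn15 and 0.887 TPM of Cldn2 in Trpm5+Dclk1+ cells. Without its highest cell the mean of Cldn2 in these 45 was 3.99 TPM. The other cells of the rest had 21.1 TPM of Cldn15 and 7.93 TPM of Cldn2. Median gene numbers were 4720, 4074, 1948 and 2384 in these subsets, and 4 cells were counted in more than 1 of the first 3 subsets.

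Wells labelled epithelial gave a like arrangement in cells that these comparisons did not use. Cldn2 was above 0 in 0 of 34 Krt20-positive cells, which allows a share of cells above 0 TPM of up to 8.82% taken as 3 counts (Clopper-Pearson upper bound 10.3%), and in 59.5% of the rest (22 of 37, 42.1% to 75.2%). Cldn15 was above 0 in 14.7% of Krt20-positive cells and 78.4% of the rest, Cldn4 in 41.2% and 5.41%, and Cldn23 in 82.4% and 51.4%. Mean Cldn3 over cells was 445.3 TPM in Krt20-positive cells and 197.01 TPM in the rest. The first mean was raised by 2 cells of plate set 1, which averaged 2087 TPM. In set 3 the order was reversed, 164.04 TPM in Krt20-positive cells against 184.4 TPM in the rest, while it held in the other sets. The 19 Trpm5+Dclk1+ cells among these wells had Cldn3 in 19, Cldn23 in 2, Cldn2 in 2 and Cldn4 in 1. Plate sets held few such wells, so no call was made.

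No tight junction gene met the rule for the genotype label in any class. That rule asked for 10 TPM in a genotype, a 1.5-fold difference and plate-set values that did not overlap. In Krt20-positive cells 0 of 5 genes that reached 10 TPM were called, where 9.25% of 2519 genes were (4.09% higher, 5.16% lower). In the rest it was 0 of 5, where 2.60% of 2307 genes were called (0.607% higher, 1.99% lower), and in Trpm5+Dclk1+ cells 0 of 3, where 4.29% of 2309 genes were (1.82% higher, 2.47% lower). The medians of those genes, VillinCre;IPMKf/f over wild type, were -0.01 in Krt20-positive cells, -0.25 in the rest and -0.02 in Trpm5+Dclk1+ cells on the log2 scale, and those of all genes -0.09, -0.32 and -0.19 in the same order of classes. In Krt20-positive cells Cldn3 averaged 329.1 ± 47.9 TPM in cells labelled VillinCre;IPMKf/f and 376.95 ± 72.9 TPM in wild-type cells, Cldn7 379.1 ± 54.1 and 324.8 ± 87.2 TPM, Cldn23 46.6 ± 3.97 and 40.96 ± 4.28 TPM and F11r 24.99 ± 2.25 and 25.1 ± 1.48 TPM, in the same order of genotypes (SD, n = 4 and 3 plate sets). Each of these pairs overlapped between plate sets. In the rest, Cldn15 averaged 24.02 ± 13.2 TPM in cells labelled VillinCre;IPMKf/f and 26.4 ± 9.59 TPM in wild-type cells, and Cldn2 9.46 ± 4.64 and 12.7 ± 9.32 TPM.

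Cldn4 in Krt20-positive cells was the largest difference among the 9 genes and the 3 classes. Its plate-set means were 21.4, 47.5, 3.74 and 3.89 TPM in sets 2, 4, 5 and 7, labelled VillinCre;IPMKf/f, and 27.2, 55.1 and 60.6 TPM in the wild-type sets 1, 3 and 6. Set 4 overlapped the wild-type values, the other 3 did not, and the log2 difference was -1.87 with an SD of 1.35. The value of set 4 rested on 1 cell of 703 TPM, 98.8% of that set's sum, without which its mean was 0.629 TPM. Leaving out the highest cell of every plate set and class gave -3.44 and values that no longer overlapped, so that Cldn4 met the rule as lower. It also met it without plate set 4, without plate set 1, and when log2(TPM + 1) was averaged over cells. Over all 25 alternative settings the difference ran from -3.44 to 2.04, with the sign of the main value in 23. In 21 of the 25 Cldn4 was not called, as in the main run.

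Fewer of the Krt20-positive cells labelled VillinCre;IPMKf/f had Cldn4, 17.02% (8 of 47, 7.65% to 30.8%) against 45.3% of wild-type cells (24 of 53, 31.6% to 59.6%). By plate set, 2 of 7, 2 of 15, 2 of 18 and 2 of 7 cells had it in sets 2, 4, 5 and 7, labelled VillinCre;IPMKf/f, and 4 of 14, 5 of 9 and 15 of 30 in the wild-type sets 1, 3 and 6. The share of set 1 equalled those of sets 2 and 7, and sets 3 and 6 stood above the other 5. The median among cells with Cldn4 was 13.8 against 63.4 TPM. Median genes per cell were 2146 against 2450. In cells with under 3000 genes the shares were 14.7% against 50.0%, and in those with 3000 or more 23.1% against 36.8%. Mean Cldn4 was 6.68 against 45.8 TPM in the first of these bands and 56.1 against 59.8 TPM in the second. The 56.1 TPM was a mean over 13 cells, 3 of them above 0, and rested mostly on the cell of 703 TPM from plate set 4. At 20 to under 100 TPM of Krt20 the shares were 12.5% against 38.5%, and at 100 TPM or more 21.7% against 51.9%. In Krt20-positive wells labelled epithelial they were 29.2% (7 of 24) against 70% (7 of 10). By plate set these were 4 of 9, 0 of 2, 3 of 8 and 0 of 5 wells in sets 2, 4, 5 and 7. They were 2 of 2, 1 of 3 and 4 of 5 in the wild-type sets 1, 3 and 6, so the genotypes overlapped. In Krt20-positive cells of wells labelled tuft, the summed colonocyte markers, Krt20 among them, also varied. Their plate-set means were 9433 to 20619 TPM in cells labelled VillinCre;IPMKf/f and 7935 to 14927 TPM in wild-type ones. Any part of colonocyte state in the Cldn4 values was not tested. Cldn23 differed the other way in pooled share in these Krt20-positive cells. It was above 0 in 87.2% of those labelled VillinCre;IPMKf/f (41 of 47, 74.3% to 95.2%) and 71.7% of wild-type ones (38 of 53, 57.7% to 83.2%). These intervals cover counting error over pooled cells only. By plate set the shares were 71.4%, 100%, 83.3% and 85.7% in sets 2, 4, 5 and 7. They were 71.4%, 77.8% and 70% in the wild-type sets 1, 3 and 6, so the genotypes overlapped.

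**Figure D5:**
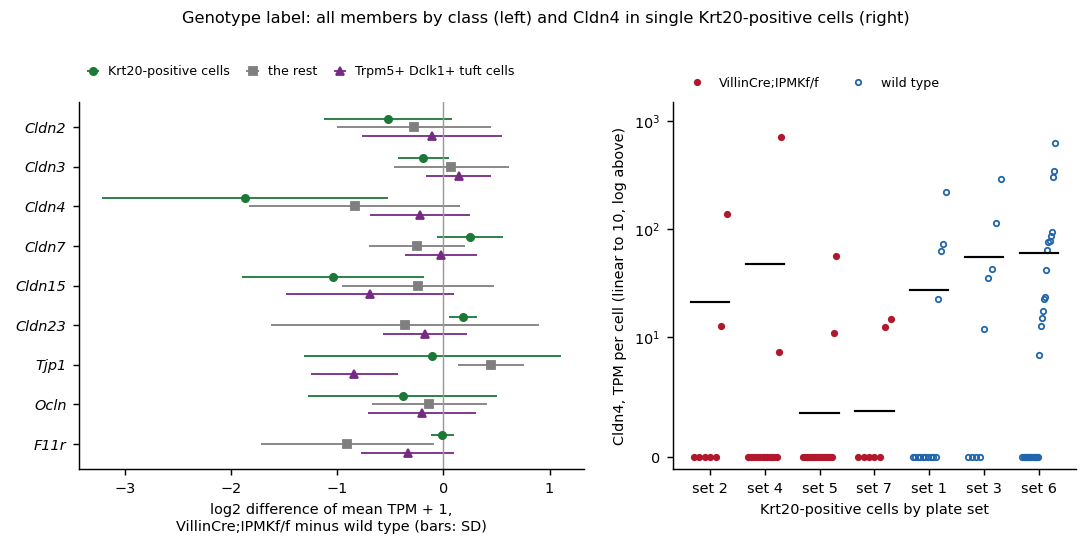
Left, log2 difference of mean TPM + 1 between cells labelled VillinCre;IPMKf/f and wild-type cells for the 9 genes in each class (points), with the pooled SD of plate sets within genotypes (bars). Right, Cldn4 in single Krt20-positive cells by plate set, on an axis that is linear to 10 TPM and logarithmic above, with black bars for plate-set means; 1 cell of 703 TPM carries plate set 4.

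Tjp1 in Trpm5+Dclk1+ cells did not overlap between genotypes but was far below the floor. Its plate-set means were 0.620, 0.725, 0.591 and 0.430 TPM in sets 2, 4, 5 and 7, labelled VillinCre;IPMKf/f, and 1.51, 3.62 and 0.979 TPM in the wild-type sets 1, 3 and 6. The difference was -0.84 ± 0.41 on the log2 scale. A single cell of 197.04 TPM made 78.96% of the sum of set 3, and without the highest cells the difference was -0.40. Tjp1 was above 0 in 22.6% of these cells labelled VillinCre;IPMKf/f and 31.3% of wild-type ones.

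Across the 21 profiles of class and plate set in wells labelled tuft, the pore-forming claudins stood together and apart from the sealing claudins. Pearson's r of log2(mean TPM + 1) was 0.93 between Cldn2 and Cldn15, and among the sealing claudins 0.89 for Cldn3 with Cldn7, 0.84 for Cldn3 with Cldn23, 0.84 for Cldn3 with Cldn4 and 0.81 for Cldn7 with Cldn23. Cldn2 stood at -0.38 with Cldn3 and -0.18 with Cldn23. The other proteins stood nearer the sealing claudins. Ocln ran from 0.55 with Cldn3 to 0.71 with Cldn23, but also had 0.21 with Cldn2 and 0.29 with Cldn15. F11r ran from 0.39 with Cldn23 to 0.66 with Cldn3, against -0.50 with Cldn2 and -0.47 with Cldn15. Tjp1 ran from 0.56 with Cldn7 to 0.69 with Cldn4, against -0.32 with Cldn2 and -0.28 with Cldn15. Between F11r and Ocln the value was 0.07. Profiles share plate sets and depth, and these values describe the class pattern more than anything within a class. Among 2765 genes of at least 10 TPM in a class, the closest to Cldn23 were Ahnak (0.98), Stk17b (0.98) and Erbb2 (0.97), and to Cldn4 Slc17a4 (0.91), Mep1b (0.90) and Mall (0.89). Closest to Cldn3 were Lgals4 (0.94), Scamp2 (0.93) and Mall (0.92), and to Cldn7 Vdr (0.92), Lgals4 (0.92) and Cldn3. Cldn2 was closest to Rplp0 (0.94), Cldn15 and Shmt1 (0.92), and Cldn15 to Shmt1 (0.93), Cldn2 and Gsta4 (0.93). For Ocln they were Arl4a (0.90), Ugt2b34 (0.88) and Cyp2c65 (0.88), for F11r Pvrl2 (0.87), Atp6v0b (0.86) and Arhgdia (0.85), and for Tjp1 Ccng2 (0.77), Max (0.77) and Slc40a1 (0.76).

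Other junction genes differed between classes list by list. Over Trpm5+Dclk1+ cells, 11 of the 45 list genes compared were higher in Krt20-positive cells and 5 lower. Of all genes, 18.9% were higher and 17.7% lower. These 45 count in 8 epithelial transcription factors, which are not junction genes, with 3 of the higher and 2 of the lower calls. Of 18 other claudins in the table, Cldn14 alone reached 10 TPM: it averaged 0.286 ± 0.543 TPM in Krt20-positive cells, 1.26 ± 0.793 TPM in the rest and 13.6 ± 3.98 TPM in Trpm5+Dclk1+ cells, and was lower in both of the first classes than in Trpm5+Dclk1+ cells (-3.54 and -2.73). The list of other tight junction membrane proteins also held Epcam, St14 and Spint2, which are not tight junction proteins in the strict sense. Of its 17 genes, 10 were compared. In Krt20-positive over Trpm5+Dclk1+ cells 5 were higher and 1 lower, with a median of 1.18 against -0.12 over all genes. These included Cxadr, the coxsackievirus and adenovirus receptor (2.83 ± 0.61), the protease St14 (2.35 ± 0.62), Epcam (1.74 ± 0.60) and the protease inhibitor Spint2 (1.39 ± 0.73), against Lsr, a protein of tricellular contacts (-1.92 ± 1.19). Ildr1, of the same family as Lsr, was lower in the rest than in Trpm5+Dclk1+ cells (-1.09 ± 0.36).

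Of 28 plaque and polarity proteins in the table, 6 were compared between Krt20-positive and Trpm5+Dclk1+ cells, where 36.6% of all genes were called. Of these 1 was called, the junctional exchange factor Arhgef2, lower (-1.78 ± 0.54), with a list median of 0.24. Against the rest, where 16.1% of all genes were higher, 2 of 6 were higher. They were Llgl2 (1.26 ± 0.57) and cingulin, Cgn (13.8 ± 5.43 against 5.70 ± 2.46 TPM). None of 9 adherens junction and desmosome genes was called over Trpm5+Dclk1+ cells (median 0.68), against the same 36.6%. Against the rest 2 of 9 were higher, a share near the 16.1% of all genes. They were the desmosomal cadherin Dsg2 (1.78 ± 0.58) and nectin-2, Pvrl2 (1.40 ± 1.12). In junctional actomyosin, 3 of 11 were higher in Krt20-positive over Trpm5+Dclk1+ cells, the myosin light chains Myl12b (2.45 ± 0.73) and Myl12a (1.37 ± 1.42) and the membrane linker Ezr (2.25 ± 0.83), with a list median of 0.44, a share of calls near that of all genes (18.9% higher). Over the rest, 5 of 11 were higher, among them the myosin heavy chain Myh14 (2.91 ± 0.99), against 16.1% of all genes. In the rest over Trpm5+Dclk1+ cells 5 of 11 were lower, where 16.5% of all genes were, among them Myh14 (-1.88 ± 0.81) and the microvillar protein Vil1 (-1.33 ± 0.46). Myl12a and Myl12b are near-identical copies whose reads the counting may have shared out wrongly, so each value is uncertain. Of 8 epithelial transcription factors compared between Krt20-positive and Trpm5+Dclk1+ cells, Elf3 (1.19 ± 0.41), Klf4 (1.11 ± 0.54) and Cdx2 (1.03 ± 0.49) were higher in Krt20-positive cells. Ehf (-2.16 ± 1.29) and Cdx1 (-1.36 ± 0.56) were lower, with a list median of 0.36. Of all genes, 18.9% were higher and 17.7% lower in that comparison. For the genotype label, list genes were counted with the transcription factors included. Of these, 1 of 44 was called in Krt20-positive cells, against 9.25% of all genes. It was 2 of 37 in the rest, against 2.60%, and 0 of 40 in Trpm5+Dclk1+ cells, against 4.29%. Pvrl2 was lower in Krt20-positive cells labelled VillinCre;IPMKf/f (15.2 ± 3.17 against 25.9 ± 6.23 TPM), Llgl2 lower in the rest (13.4 ± 5.97 against 23.8 ± 4.65 TPM) and Ctnnb1, beta-catenin, higher in the rest (34.7 ± 13.8 against 18.9 ± 1.47 TPM).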

How the data were processed

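The authors deposited TPM, length-normalised transcript shares that sum to 1000000 per well, in a single table with 92 spike-in entries (0 TPM in all); the unit follows from the values. Per the submitters' processing notes, Bowtie2 2.4.2, RSEM 1.3.3 and build mm10 were used; the sources used here do not give settings, annotation release, strand handling or read depth. Depth is therefore unknown, and genes above 0 TPM stand in for it. RSEM divides reads among similar transcripts by a model, so levels of close paralogs are uncertain.

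Of the table, 38 columns of a near-empty plate were not used. Among the other 1165 wells, 6 held no value and 309 had under 1000 genes. No kept columns were identical, no doublet caller was run, and 6 kept cells that passed both the Krt20 and the tuft thresholds were placed with the tuft cells. TPM was averaged per plate set and class with at least 5 cells, and log2(mean TPM + 1) was compared with plate sets weighted equally, which understates differences of low genes. The genotype rule and the class rule were each run on simulated data, in cells pooled over plate sets and with larger planted changes than the rules ask for. That check does not cover genes of low TPM, classes of few cells or spread between plate sets. Named genes are the 9 tight junction genes, up to 4 genes per junction list and direction that met a rule, and the 3 closest profiles of each. The genes, lists and classes were chosen with earlier results of these data known. Alternatives changed the pseudocount, averaging, scaling, cell filter, floor, Krt20 threshold and plates, or left out plate sets. Python 3.11.15, numpy 2.4.6, pandas 2.3.3, scipy 1.17.1 and matplotlib 3.10.9 were used.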

Additional observations from a re-analysis of the deposited data

Results flagged for a closer look

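In 30 sets of 7 or fewer plate-set values examined, 2 stood apart from the others by Dixon's criterion, which chance meets in about 1 of 20 sets. Cldn15 in Krt20-positive cells over the rest was lowest in plate set 2, at a log2 difference of -5.38: the 7 Krt20-positive cells of that set were listed at 0 TPM, and its rest had 40.6 TPM, the highest of the 7 sets. Cldn23 in the same comparison was highest in plate set 7, at 5.73, where the 7 cells of the rest were listed at 0 TPM and the 7 Krt20-positive cells averaged 52.1 TPM. Both values depend on the pseudocount of 1 TPM.

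Tjp1 in the rest over Trpm5+Dclk1+ cells had opposite signs between the genotype labels, from 0.19 to 0.86 in the 4 plate sets labelled VillinCre;IPMKf/f and from -1.62 to -0.37 in the 3 wild-type sets, a gap of 1.29 between the means. The value of -1.62 was that of set 3, where 1 cell of 197.04 TPM made 78.96% of the sum of Trpm5+Dclk1+ cells. Without that cell their mean was 0.772 TPM, against 0.504 TPM in the rest of the same set. The difference between the genotype labels was not tested, and all the means were under 10 TPM.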

How the results depend on the processing

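No direction of a called gene was reversed under any alternative run. Cldn4 for the genotype label in Krt20-positive cells was not called in the main run, and kept its sign in 23 of 25 alternatives. Of 972 differences of single genes under other settings, 891 moved by less than the SD between plate sets and 81 by more. All those that left out a plate set moved by less. All but 14 counts of called genes stayed within 1.5 times under other settings. For the rest over Trpm5+Dclk1+ cells, where 2 genes were called, the count was 1 (Cldn15) with a pseudocount of 10 TPM, with cells of at least 500 genes, on the first plates only, with Krt20 of at least 50 TPM, and without the highest cell of each plate set and class, the last chosen after seeing the data. For Krt20-positive cells over the rest it was 3 on the first plates only, against 5. For the genotype label in Krt20-positive cells, where it was 0, it was 1 with averaging of log2 values over cells (Cldn4, lower), with rescaled TPM (Cldn23, higher, while the median of all genes was -0.30), with at least 2000 genes (Ocln, lower), on the first plates only (Cldn3, lower) and without the highest cells (Cldn4, lower). In Trpm5+Dclk1+ cells it was 1 (Tjp1, lower) with rescaled TPM, a floor of 1 TPM and no floor. The causes were not tested.

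Leaving out a plate set gave 3 to 4 genes for Krt20-positive over Trpm5+Dclk1+ cells, 4 to 5 for Krt20-positive cells over the rest (without set 1 F11r was called in place of Cldn2), 1 to 3 for the rest over Trpm5+Dclk1+ cells (1 without set 1 or set 4) and 0 to 1 for the genotype label in each class: Cldn4 in Krt20-positive cells without set 1 or set 4, F11r in the rest without set 4 and F11r in Trpm5+Dclk1+ cells without set 6. No paired analysis was possible because the plate-set numbers are not shared between genotypes. Depth is unknown, so a gene listed at 0 TPM is not shown to be absent.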
